A study of Mus musculus with 47 samples.

Results

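The Cyp3a family encodes hepatic cytochrome P450 enzymes, and 7 of its genes (Cyp3a11, Cyp3a13, Cyp3a16, Cyp3a25, Cyp3a41a, Cyp3a44 and Cyp3a59) were followed across 8 groups of mice. They were chosen by gene name: every gene probe of the array whose name is one of these 7 symbols was taken, which gave 7 probes, 1 for each gene, of 56605 gene probes and of 37325 named genes. All 7 probes passed the filter on low signal, but Cyp3a44 passed it through the females only. The other 6 were well above background in every mouse. Cyp3a44 was not well above background in 22 of the 23 males, so no test of or with males is given for it, and the counts there concern the other 6 genes.

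Gene expression was measured in the liver of C57BL/6J mice with 1-color Agilent arrays, 1 array for each of 47 mice. The mice were male or female, Pxr+/+ or Pxr-/-, and drank plain water (Cont) or water with antibiotics (ATB) for 2 weeks. ATB combined ampicillin at 1 g/L, neomycin at 1 g/L and vancomycin at 0.5 g/L, and the question was whether the gut microbiota acts on the liver through the pregnane X receptor (PXR), and in which sex. There were 6 mice in each group, except for 5 Pxr-/- Cont males.

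All mice were aged 6 months, ate chow and were killed 6 h after lights on, and Pxr+/+ and Pxr-/- mice were littermates born to Pxr+/- parents. The Pxr-/- allele was carried in the germline, so that the receptor was missing in the gut as well as in the liver. The methods give 3 mice per cage for groups of 6, and the labels do not tie an array to a cage, so that cage and group cannot be told apart. The sixth Pxr-/- Cont male was not analysed here. The p-values below measure the spread between mice.

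CYP3A enzymes sit in the endoplasmic reticulum of hepatocytes, where they oxidize drugs, steroids and bile acids with electrons passed on by the reductase encoded by Por. PXR, encoded by Nr1i2, is a nuclear receptor that binds many foreign and endogenous compounds and, paired with the retinoid X receptor, recognizes repeats of the hexamer AGGTCA and its variants; Cyp3a11 is its best known target gene in mouse liver. Several Cyp3a genes are also known to differ between the sexes under the influence of growth hormone.

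All of the genes but Cyp3a13 lie in a cluster on chromosome 5, and their sequences are close enough for a probe to meet more than 1 transcript. The probes that carry the main results are printed here, 5′ to 3′, with the positions of the array files (mouse build mm9). The Cyp3a11 probe, at chr5:146672058-146673925 on the minus strand, spans 1868 bases of genome with its 60 bases and so crosses a splice junction.
Cyp3a11 probe: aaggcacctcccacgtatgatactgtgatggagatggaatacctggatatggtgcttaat
The array files list transcripts of 4 genes for it, Cyp3a11, Cyp3a41a, Cyp3a41b and Cyp3a44, so that its signal is a sum over whichever of them are present. The Cyp3a59 probe, at chr5:146920638-146920697 on the plus strand, is listed for Cyp3a59 alone.
Cyp3a59 probe: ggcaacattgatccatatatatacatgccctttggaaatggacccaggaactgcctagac
The Cyp3a25 probe, at chr5:146789175-146789234 on the minus strand, is listed for Cyp3a25 and Cyp3a59. It shares 49 of 52 overlapping bases with the probe of Cyp3a57, a family gene outside the 7, at chr5:146151322-146151381 on the plus strand. Capitals mark the 3 bases that differ, which are G17T, T47C and A49G when positions are counted from 1 at the 5′ end of the Cyp3a25 probe.
Cyp3a25 probe: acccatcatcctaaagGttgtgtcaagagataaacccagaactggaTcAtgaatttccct
Cyp3a57 probe: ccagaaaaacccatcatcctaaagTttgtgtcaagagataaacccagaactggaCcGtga
For the other 4 genes the first 30 bases of each probe are printed. They do not show which transcripts a probe meets, since no probe was matched to transcripts here.
Cyp3a16 probe, first 30 bases: gatgcagtcataactggagcgtgattttcc
Cyp3a41a probe, first 30 bases: actggttctcatgggaccatctccatccac
Cyp3a44 probe, first 30 bases: cactgagctttctcagtgtctgtgcaagtt
Cyp3a13 probe, first 30 bases: cctgtggaccagaaaccaattcatattgtg
The Cyp3a16 probe (chr5:146197274-146197333) and the Cyp3a44 probe (chr5:146585717-146585776) are each listed for their own gene alone, and the Cyp3a41a probe (chr5:146505792-146505851) for Cyp3a41a and Cyp3a41b. Cyp3a13 lies outside the cluster, with its probe at chr5:138335412-138335471, at -8337 kb from that of Cyp3a11. How much each listed transcript adds to a signal was not tested, and each value below is the signal of a probe, named by its gene.

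Promoters are shown next, because the question concerns a receptor that binds DNA. The 250 bases before the start of each gene come from RefSeq (GRCm38.p6), and capitals mark the hexamer AGGTCA, on either strand, with the repeats that hold it. The 4 printed are the ones that split the family, 1 of a pair with near-identical promoters and unlike signals (Cyp3a25 and Cyp3a59), and 2 from the other promoter class (Cyp3a11 and Cyp3a44).
Cyp3a11 promoter, chr5:145879855-145880104, minus strand: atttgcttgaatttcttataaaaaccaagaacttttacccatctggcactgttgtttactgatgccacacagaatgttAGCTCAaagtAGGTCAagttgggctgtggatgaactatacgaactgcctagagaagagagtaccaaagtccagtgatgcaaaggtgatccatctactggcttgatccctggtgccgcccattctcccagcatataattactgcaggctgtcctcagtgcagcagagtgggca
Cyp3a44 promoter, chr5:145805875-145806124, minus strand: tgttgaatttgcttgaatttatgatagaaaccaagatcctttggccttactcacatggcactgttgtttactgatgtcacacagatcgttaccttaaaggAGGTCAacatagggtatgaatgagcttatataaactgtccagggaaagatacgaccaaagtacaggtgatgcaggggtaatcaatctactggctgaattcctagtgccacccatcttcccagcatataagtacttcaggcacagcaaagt
Cyp3a25 promoter, chr5:146009619-146009868, minus strand: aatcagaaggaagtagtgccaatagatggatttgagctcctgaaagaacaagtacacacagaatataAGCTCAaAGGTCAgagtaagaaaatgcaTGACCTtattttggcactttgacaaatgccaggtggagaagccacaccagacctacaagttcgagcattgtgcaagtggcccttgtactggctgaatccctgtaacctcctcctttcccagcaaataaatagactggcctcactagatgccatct
Cyp3a59 promoter, chr5:146079008-146079257, plus strand: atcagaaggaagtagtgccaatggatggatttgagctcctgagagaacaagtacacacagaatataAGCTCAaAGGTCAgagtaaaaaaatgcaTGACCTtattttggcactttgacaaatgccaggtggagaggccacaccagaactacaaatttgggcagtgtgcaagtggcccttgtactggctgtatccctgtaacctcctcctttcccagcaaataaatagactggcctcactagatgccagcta
AGGTCA was present in 3740 of 27018 promoters of this length (13.8%). It stood in those of Cyp3a11 (position -162 from the start), Cyp3a44 (position -150), Cyp3a25, Cyp3a57 and Cyp3a59, and not in those of Cyp3a16, Cyp3a41a, Cyp3a41b and Cyp3a13. The direct repeat of AGCTCA and AGGTCA with 1 base between them was found in 7 promoters of the genome (0.0259%), 3 of them Cyp3a25 (position -183), Cyp3a57 (position -181) and Cyp3a59 (position -184). The same pair with 4 bases between was found in 4 promoters (0.0148%), with Cyp3a11 (position -172) as the family member among them. On both strands, neither AGTTCA nor AGGTCA repeated with 3 bases between, nor TGAACT followed by AGGTCA with 6 bases between, was in any of the family's promoters. At spacings of 1 and 4 bases only AGCTCA, the variant held by the promoters printed above, was searched beside AGGTCA. The shares for these 2 repeats are therefore no test of rarity. The promoters of Cyp3a25, Cyp3a57 and Cyp3a59 share 88.9% to 94.8% of bases, so they are not separate finds. A match describes the letters of this window and does not show that a factor binds there.

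Each array had between 31070 and 34458 probes well above background, and no spot of these genes was saturated on any array. In this report a gene is called changed when the adjusted p (limma, Benjamini-Hochberg over 32975 probes) was at most 0.05 and the fold change was above 1.2, and levels and differences are normalized log2 signals unless a fold is named. Arrays were washed in 3 batches and mounted on 6 slides, with every group on each slide except that Pxr-/- Cont males were missing from 1 of them. Nr1i2, read by 1 probe, ranged from 11.24 to 12.41 (median 11.83) in the 24 Pxr+/+ mice and from 10.37 to 11.89 (median 11.45) in the 23 Pxr-/- mice. The sources used here do not say whether that probe reads a part of Nr1i2 that the knockout allele lacks, so the overlapping levels check nothing about the genotype labels. The 12 hepatocyte markers had a mean level between 17.12 and 17.53 in every mouse. In whole liver, fewer cells of a type and less RNA per cell cannot be told apart.

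**Figure D1:**
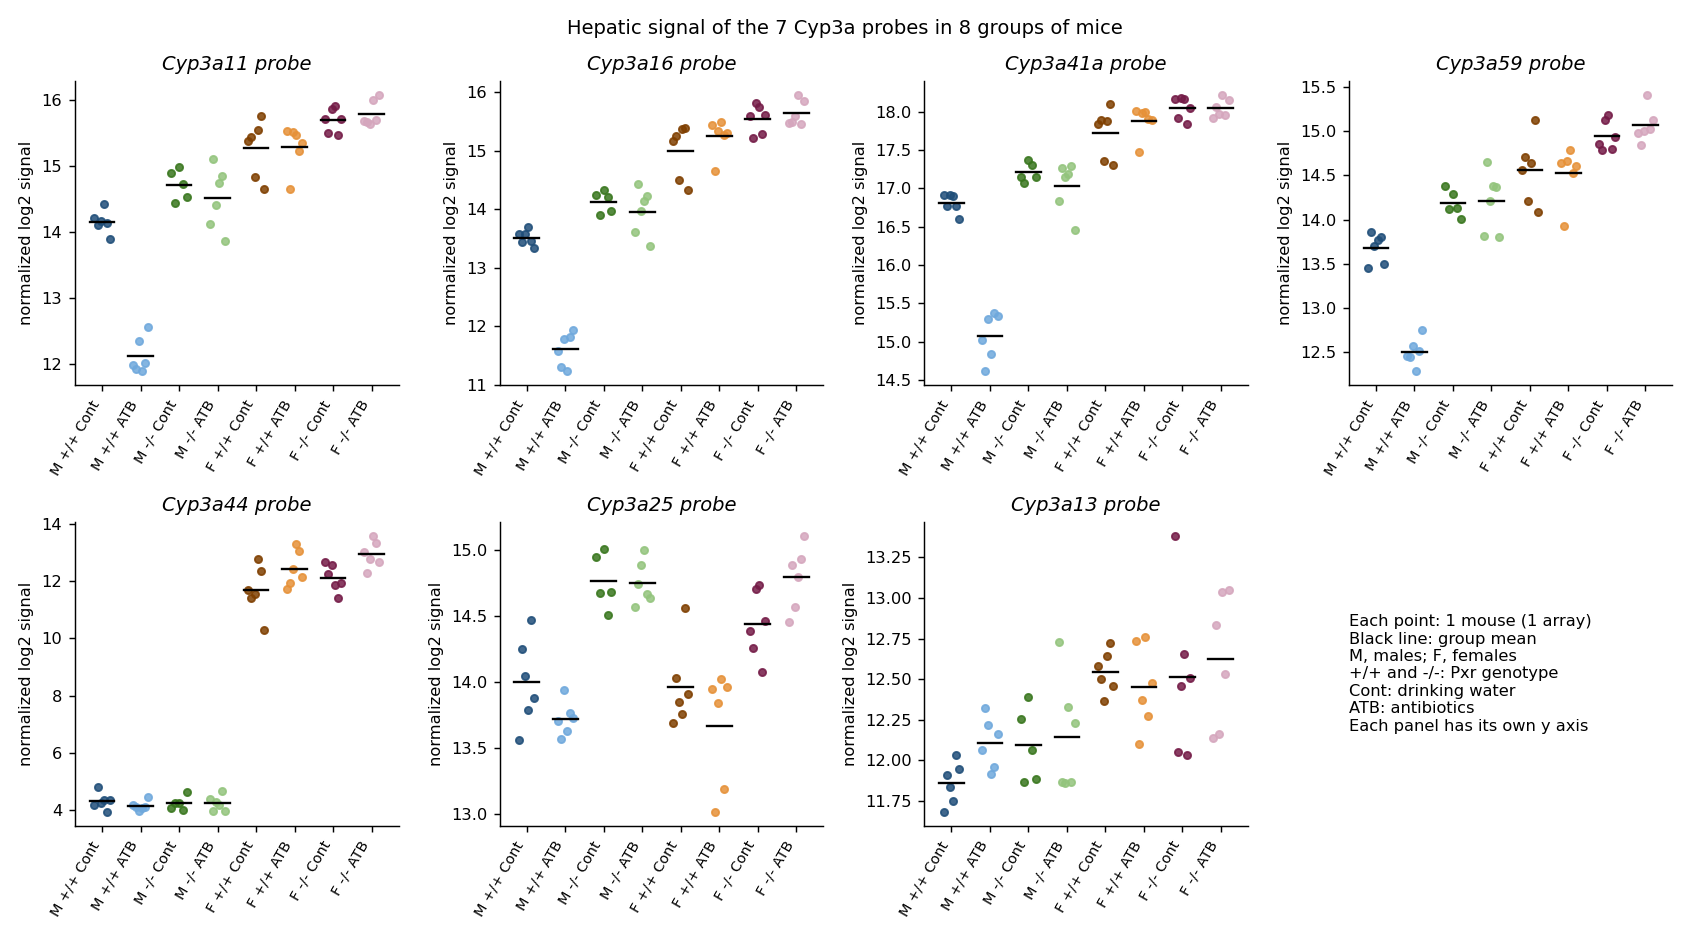
Normalized log2 signal of the 7 Cyp3a probes, 1 panel for each gene with its own y axis, in the 8 groups (6 mice each, 5 Pxr-/- Cont males); points are mice and black lines are group means. Pxr+/+ ATB males lie below every other mouse for Cyp3a11, Cyp3a16, Cyp3a41a and Cyp3a59, the Cyp3a44 signal is at background in males and above 10 in females, Cyp3a25 is higher in Pxr-/- mice, and Cyp3a13 varies little.

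The question of the first comparison was whether ATB changed the Cyp3a genes in males that have PXR. In Pxr+/+ males, ATB lowered Cyp3a11, Cyp3a16, Cyp3a41a and Cyp3a59, by 4.11-fold, 3.74-fold, 3.32-fold and 2.26-fold. These 4 of the 6 genes measured in males stand beside 0.192% of all genes tested that were called lower and 1.13% called higher. The Cyp3a11 probe is also listed for Cyp3a41a, so the 4 need not be separate observations. The split of all calls depended on the scaling, with 85.5% of them higher here, 31.2%, 32.3% and 35% under 3 other normalizations and 71.3% in the authors' processed values, and the 4 Cyp3a genes were called lower in each of these. The median difference over the 6 genes was -1.45, and that over all probes tested was 0.10.

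Cyp3a11 encodes the main drug-inducible CYP3A of mouse liver. Its lowest, median and highest levels were 13.89, 14.15 and 14.42 in the 6 Pxr+/+ Cont males and 11.88, 11.99 and 12.55 in the 6 Pxr+/+ ATB males. The groups did not overlap, and the difference was -2.04 (SE 0.17, limma adjusted p = 1.14e-10).

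Cyp3a16, known as a fetal and neonatal form of the enzyme, had levels of 13.33, 13.52 and 13.69 in Cont males and 11.23, 11.68 and 11.93 in ATB males. The difference was -1.90 (SE 0.17, limma adjusted p = 3.04e-10), again with no overlap. Cyp3a41a, known as a form that prevails in females, went from 16.60, 16.84 and 16.91 to 14.61, 15.16 and 15.37, a difference of -1.73 (SE 0.13, limma adjusted p = 6.8e-12). Cyp3a59, read by a probe listed for that gene alone, went from 13.45, 13.73 and 13.86 to 12.28, 12.49 and 12.75, a difference of -1.18 (SE 0.14, limma adjusted p = 1.51e-06). Every ATB male was below every Cont male for both genes. The probes named for a neonatal and a female form were bright in these adult males. The median intensity in Pxr+/+ Cont males was 13033 for Cyp3a16 and 123696 for Cyp3a41a, against 19642 for Cyp3a11. Whether these probes also read transcripts of other genes was not tested, so the falls are those of probe signals.

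Of the 6, the other 2 genes were not called in Pxr+/+ males. Cyp3a25 differed by -0.28 (95% confidence interval -0.60 to 0.04, adjusted p = 0.354) and Cyp3a13 by 0.25 (interval -0.10 to 0.59, adjusted p = 0.448), with overlapping groups. Cyp3a44 was well above background in 1 of 6 Cont males and in none of the ATB males, so that no fold can be given. Within each of the 6 slides, the ATB male was below the Cont male for all 4 called genes, with differences from -2.54 to -1.34 for Cyp3a11 and from -1.48 to -0.75 for Cyp3a59. Within the 3 wash batches the difference for Cyp3a11 was -2.07, -2.33 and -1.34.

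In Pxr-/- males, none of the 6 genes measured was called under ATB (limma, 0 of 6 at an unadjusted p under 0.05), where 0.0503% of all genes were called higher and 0.0594% lower (45.8% of calls higher, and 23.1% to 39.1% under the 4 other scalings). Over all genes, 2017 of 21874 had an unadjusted p under 0.05. Cyp3a11 had levels of 14.88, 14.43, 14.98, 14.73 and 14.52 in the 5 Cont males, and a lowest, median and highest level of 13.85, 14.57 and 15.10 in the 6 ATB males. The difference was -0.20 (95% interval -0.57 to 0.17, adjusted p = 0.888), and the ATB group spread over the whole range of the Cont group and beyond it on both sides. For Cyp3a16 the difference was -0.17 (interval -0.53 to 0.19), for Cyp3a41a -0.18 (interval -0.46 to 0.10) and for Cyp3a59 0.02 (interval -0.28 to 0.32). None of these intervals reached the size of the change seen in Pxr+/+ males.

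The difference between these effects was itself tested. In males, the ATB effect in Pxr+/+ mice minus that in Pxr-/- mice was -1.84 for Cyp3a11 (SE 0.25, limma adjusted p = 8.75e-05), -1.73 for Cyp3a16 (adjusted p = 0.000131), -1.55 for Cyp3a41a (adjusted p = 1.5e-05) and -1.20 for Cyp3a59 (adjusted p = 0.00637). These 4 genes were all the genes called in this comparison among 21874 tested, in which 0.0183% were called lower and 0% higher. Probes of the family can share transcripts, so the 4 need not be separate observations. They were called again under each of the other 11 processing settings and with any of the 47 arrays left out. The setting that kept only the probe with the highest mean signal per gene could not change this. It was not fitted anew, and these genes have no other probe.

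In females, none of the 7 genes was called under ATB, with or without PXR. In Pxr+/+ females 0.00457% of all genes were called higher and 0.0137% lower, and in Pxr-/- females 0.178% and 0.0274% (86.7% of calls higher, and 42.1% to 85.5% under the 4 other scalings). The lowest, median and highest Cyp3a11 levels were 14.65, 15.40 and 15.75 in Pxr+/+ Cont females and 14.64, 15.41 and 15.52 in Pxr+/+ ATB females. The difference was 0.02 (95% interval -0.33 to 0.37, adjusted p = 0.976), so that both groups covered almost the same range. In Pxr-/- females the Cyp3a11 levels were 15.47, 15.70 and 15.91 without and 15.63, 15.69 and 16.07 with ATB, a difference of 0.10 (interval -0.25 to 0.45).

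Cyp3a44, which encodes a form known from female liver, had the largest ATB difference of the 7 genes in each female genotype, and neither passed the threshold. Its lowest, median and highest levels were 10.30, 11.63 and 12.78 in Pxr+/+ Cont females and 11.72, 12.28 and 13.30 in Pxr+/+ ATB females, a difference of 0.74 (SE 0.27, unadjusted p = 0.00827 and adjusted p = 0.334 by limma). In Pxr-/- females the levels were 11.42, 12.09 and 12.68 without and 12.27, 12.89 and 13.59 with ATB, a difference of 0.82 (unadjusted p = 0.00382 and adjusted p = 0.187 by limma). The ATB female was above the Cont female in 5 of 6 slides for Pxr+/+ mice and in 6 of 6 for Pxr-/- mice. No other gene of the 7 had an unadjusted p under 0.05 in Pxr+/+ females, and Cyp3a25 was the other 1 in Pxr-/- females, with a difference of 0.35 (adjusted p = 0.364 by limma). Of all 21874 genes, 3039 had an unadjusted p under 0.05 in Pxr+/+ females and 3451 in Pxr-/- females.

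**Figure D2:**
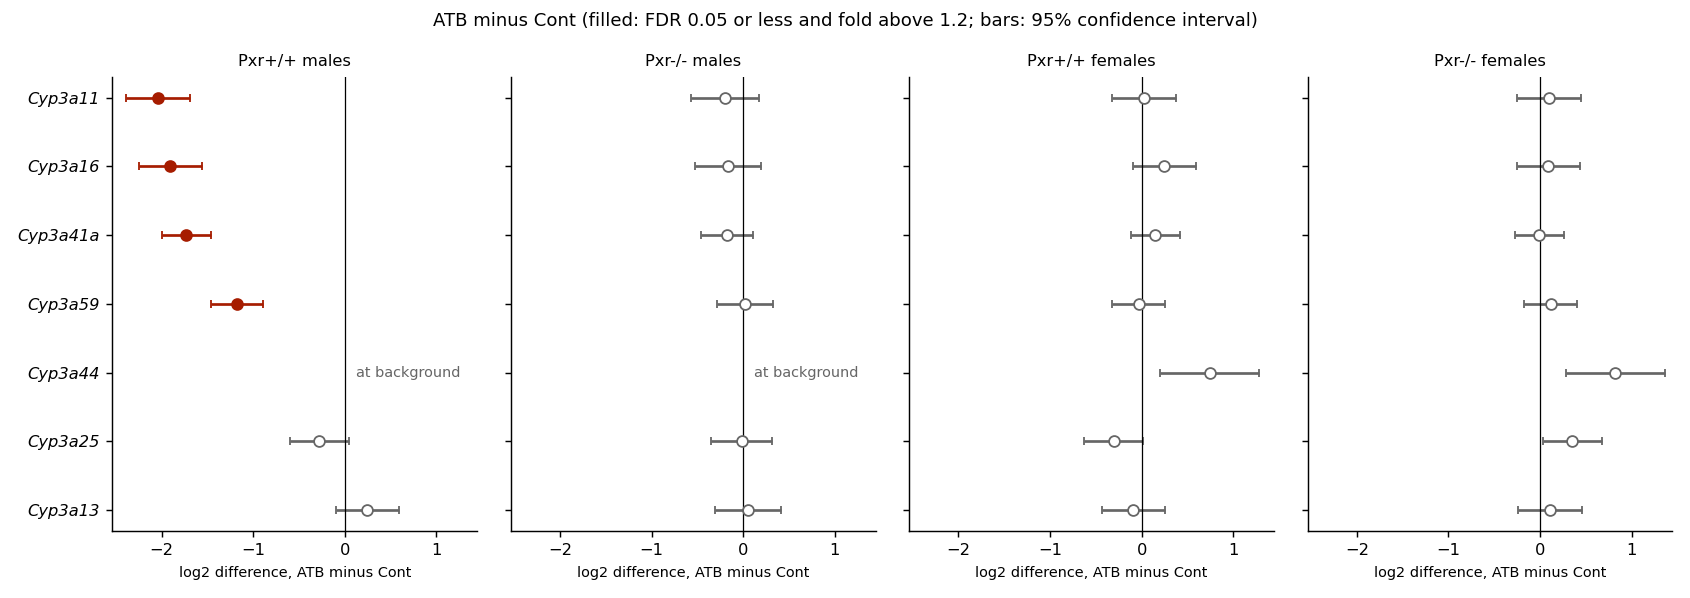
Difference in normalized log2 signal between ATB and Cont mice (x axis) for each Cyp3a gene (y axis) in Pxr+/+ males, Pxr-/- males, Pxr+/+ females and Pxr-/- females; points are limma estimates, bars are 95% confidence intervals and filled points were called. The 4 filled points, from -2.04 to -1.18, are all in Pxr+/+ males, and no point is drawn for Cyp3a44 in males, where it was at background.

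In Pxr+/+ mice, the ATB effect in males minus that in females was -2.06 for Cyp3a11 (SE 0.25, limma adjusted p = 1.72e-06), -2.15 for Cyp3a16 (adjusted p = 3.93e-07), -1.88 for Cyp3a41a (adjusted p = 3.37e-08) and -1.14 for Cyp3a59 (adjusted p = 0.00678). Over all genes, 0.0274% were called lower and 0.0183% higher here, and the other called genes included Cyp2b10 (-2.93) and Cyp2b9 (-2.43), which encode P450 enzymes known as targets of CAR, a receptor related to PXR. In Pxr-/- mice none of the 6 genes was called (limma, 0 of 6 at an unadjusted p under 0.05, against 1603 of all 21874 genes). Over all genes 0.00457% were called higher and 0% lower there, and the difference for Cyp3a11 was -0.30 (interval -0.81 to 0.21). In females, the ATB effect in Pxr+/+ minus that in Pxr-/- mice gave no call for any gene (limma, 0% higher and 0% lower), with an unadjusted p under 0.05 for 1 of the 7, Cyp3a25 (-0.66, adjusted p = 0.443), and for 3073 of 21874 genes.

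Among the 15 tested of 17 listed PXR target genes outside the family, 4 fell under ATB in Pxr+/+ males and none rose, with a median difference of -0.08. Of all genes, 0.192% were called lower there and 1.13% higher. Under each of the 4 other scalings 5 of the 15 fell and none rose, with medians from -0.23 to -0.19. Cyp2b10 fell by 3.11 (limma adjusted p = 5.45e-08), Cyp2b9 by 2.46 (2.18e-06), Cyp2c55 by 1.08 (0.0217) and Ces2a, a carboxylesterase gene, by 0.48 (0.0123), all on the log2 scale. Cyp2b10 and Cyp2b9 also fell in Pxr-/- males, by 1.87 (limma adjusted p = 0.0133) and 1.68 (limma adjusted p = 0.0171). Of all genes, 0.0594% were called lower in that comparison and 0.0503% higher. None of the 15 passed the test of the difference between the male genotypes (limma, 3 at an unadjusted p under 0.05, against 1689 of all 21874 genes).

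The regulators of the family were not called in that comparison. None of the 15 tested receptors and liver factors (4 at an unadjusted p under 0.05), of the 6 genes of P450 electron supply and heme (0), or of the 10 genes of growth hormone signalling and sex-dependent regulation (4) changed under ATB in Pxr+/+ males, with median differences of 0.12, 0.18 and 0.15. These medians lay between 0.00 and 0.08 under the 4 other scalings, and 1 gene of electron supply was then called lower under 2 of them. Of all 21874 genes, 290 were called here and 5024 had an unadjusted p under 0.05, so lists this short could be expected to hold no call. Of the hepatocyte, macrophage, lymphocyte, endothelial, stellate and cholangiocyte markers none was called either, with 5, 1, 2, 2, 1 and 0 at an unadjusted p under 0.05, although 1 hepatocyte marker was called lower under each of the 4 other scalings. The mean level of the 12 macrophage markers ranged from 9.83 to 10.28 in Pxr+/+ Cont males and from 9.16 to 10.44 in Pxr+/+ ATB males. Of the markers tested, 1 cholangiocyte marker was at background in all Pxr-/- ATB males, and no marker was in all mice of any other group. Among the 12 lymphocyte markers, 2 were not tested.

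No other gene near a Cyp3a probe was called with ATB in any of the 4 comparisons. Within 500 kb of the 7 probes there were 97 tested probes of 61 other genes, with differences from -0.31 to 0.33 in Pxr+/+ males and 12 genes at an unadjusted p under 0.05. Of all 21874 genes, 5024 had such a p in Pxr+/+ males. There 290 were called, against 24 in Pxr-/- males, 4 in Pxr+/+ females and 45 in Pxr-/- females. The counts among 61 neighbours are thus close to the shares of all genes and do not set the neighbours apart. From the Cyp3a11 probe, Cyp3a16 lies at -474.8 kb, Cyp3a41a at -166.3 kb and Cyp3a59 at 248.6 kb, all called, and Cyp3a25, which was not, lies at 117.1 kb, between Cyp3a11 and Cyp3a59. Cyp3a44, at -86.3 kb, could not be compared in males.

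**Figure D3:**
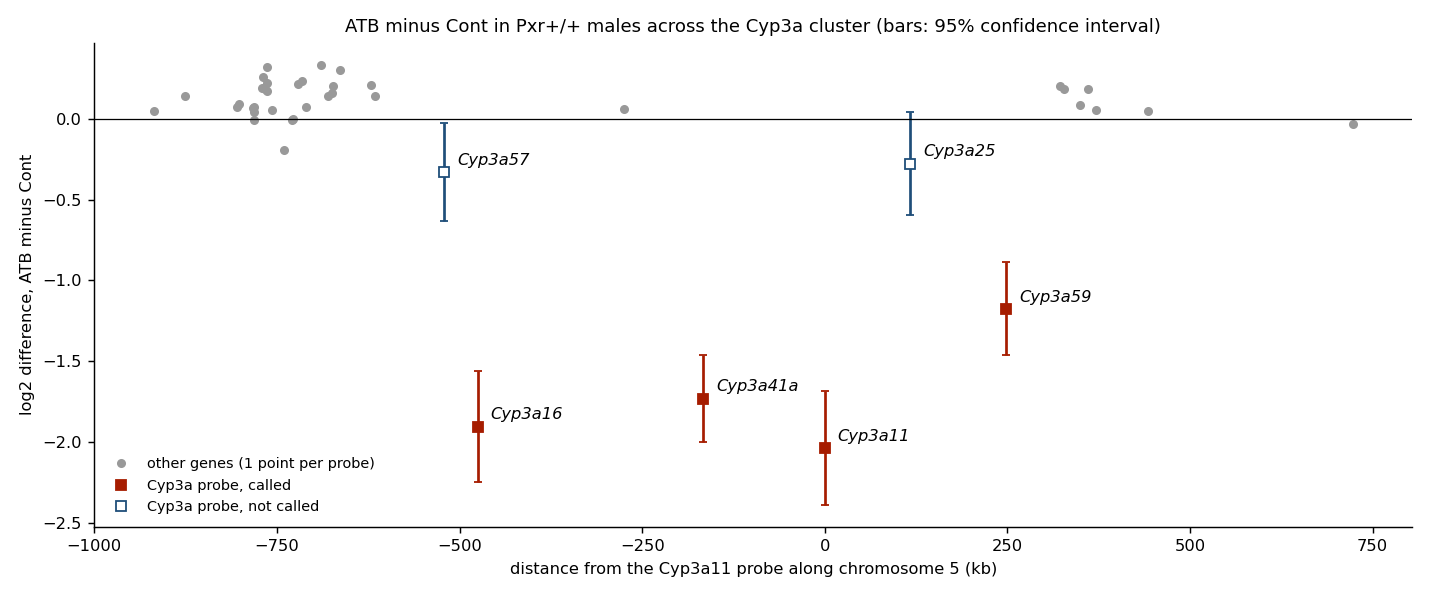
ATB minus Cont difference in Pxr+/+ males (y axis, log2) against distance along chromosome 5 from the Cyp3a11 probe (x axis, kb); squares are Cyp3a probes with 95% confidence intervals, filled when called, and grey points are probes of other genes. The filled squares lie from -2.04 to -1.18, and the grey points lie near 0. Cyp3a44, at background in males, is not drawn.

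The second comparison was between genotypes. In Cont males, 1 of the 6 genes measured, Cyp3a25, was called higher in Pxr-/- mice, where 0.16% of all genes were called higher and 0.032% lower. The Cyp3a25 levels were 13.56, 13.96 and 14.47 (lowest, median, highest) in Pxr+/+ Cont males and 14.51, 14.68 and 15.01 in the 5 Pxr-/- Cont males. The groups did not overlap, and the difference was 0.77 (SE 0.17, limma adjusted p = 0.0295, 1.70-fold). The call was lost with the slide as a block (0.76, adjusted p = 0.0514) and when any of 8 arrays was left out, namely replicates 1, 3, 4 and 6 of the Pxr+/+ Cont males and 2, 3, 4 and 6 of the Pxr-/- Cont males (0.68 to 0.79, adjusted p up to 0.156).

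Another 4 genes did not overlap between the male Cont groups and were not called. The share of all genes without overlap is not given here, so in no comparison is lack of overlap read as unusual. Cyp3a11 differed by 0.56 (adjusted p = 0.591), Cyp3a16 by 0.62 (0.338), Cyp3a41a by 0.40 (0.723) and Cyp3a59 by 0.50 (0.388), each higher in Pxr-/- mice by limma, and each with an unadjusted p under 0.05. Over all genes, 1482 of 21874 had such a p. The median difference of the 6 genes was 0.53, against -0.04 over all probes. Cyp3a59 passed the threshold under 2 of the other settings (limma adjusted p = 0.0376 and 0.0485), and Cyp3a16 did when only the 2 groups compared were fitted (0.62, limma adjusted p = 0.0234), the setting in which Cyp3a25 did not (0.161).

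In ATB males, 5 of the 6 genes were called higher in Pxr-/- mice, and all 5 were free of overlap, where 0.343% of all genes were called higher and 0.887% lower. Of all calls 27.9% were higher, against 80.9% to 82.1% under 3 other normalizations and 44.2% in the authors' processed values, with the same 5 Cyp3a genes called higher in each. This comparison shares the Pxr+/+ ATB males with the ATB comparison above, so the values of the 4 genes that fell there are not a separate observation. Cyp3a11 was 5.26-fold higher (2.40, SE 0.17, limma adjusted p = 3.15e-13), with levels of 11.88, 11.99 and 12.55 in Pxr+/+ and 13.85, 14.57 and 15.10 in Pxr-/- mice. Cyp3a16 was 5.11-fold, Cyp3a41a 3.87-fold and Cyp3a59 3.25-fold higher, and the 6 slides each had the Pxr-/- male above the Pxr+/+ male for Cyp3a11. Cyp3a25, which had not been called under ATB, was 2.04-fold higher (1.03, SE 0.16, limma adjusted p = 9.29e-05), with levels of 13.57, 13.72 and 13.94 in Pxr+/+ and 14.57, 14.70 and 15 in Pxr-/- mice.

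In Cont females none of the 7 genes was called between genotypes by limma (5 at an unadjusted p under 0.05), where 0.238% of all genes were called higher in Pxr-/- mice and 3.88% lower. An unadjusted p under 0.05 was common there, with 5884 of all 21874 genes. Of all calls 5.8% were higher, against 42.0% to 48.9% under 3 other normalizations and 12.5% in the authors' processed values. The nearest to the threshold was Cyp3a16, with levels of 14.32, 15.21 and 15.38 in Pxr+/+ and 15.22, 15.61 and 15.82 in Pxr-/- females, a difference of 0.55 (limma adjusted p = 0.0595). Cyp3a25 differed by 0.47 (0.0841), Cyp3a59 by 0.39 (0.109), Cyp3a11 by 0.43 (0.152) and Cyp3a41a by 0.33 (0.153), all with overlap. Under other normalizations 3 or 4 of these genes were called. Markers of other cells moved in the same comparison: 8 of 12 macrophage markers and 5 of 10 endothelial markers were lower in Pxr-/- Cont females, with medians of -0.95 and -0.57, and 1 to 7 and 1 to 5 of them were under the 4 other scalings, with medians from -0.87 to -0.78 and from -0.49 to -0.41. The mean level of the macrophage list ranged from 10.77 to 11.70 in Pxr+/+ and from 9.90 to 10.49 in Pxr-/- Cont females, and its part in the differences of the Cyp3a genes was not tested.

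In ATB females, Cyp3a25 was the 1 gene of the 7 called between genotypes, where 0.178% of all genes were called higher and 0.0503% lower. Its levels were 13.02, 13.89 and 14.03 in Pxr+/+ and 14.46, 14.84 and 15.11 in Pxr-/- females. The groups did not overlap, the difference was 1.13 (SE 0.16, limma adjusted p = 3.63e-05, 2.19-fold), and the Pxr-/- female was higher in 6 of 6 slides, by 0.51 to 2.10. Cyp3a11 (0.51, adjusted p = 0.685) and Cyp3a59 (0.54, adjusted p = 0.173) were also free of overlap and not called by limma. Cyp3a59 passed under 3 of the other settings.

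Cyp3a25 encodes a CYP3A of adult mouse liver of both sexes, and its pattern set the genotypes apart. Its 4 Pxr+/+ groups had the 4 lowest means, from 13.66 to 14, and its 4 Pxr-/- groups the 4 highest, from 14.44 to 14.79, although neighbouring groups in this order overlapped. The Cyp3a57 probe, with its near-identical sequence, followed it closely. It was called higher in Pxr-/- Cont males (0.77, limma adjusted p = 0.0126), ATB males (1.08, 1.16e-05) and ATB females (1.17, 4.88e-06), and not in Cont females (0.48, 0.0613). Whether these are 1 signal or 2 cannot be told apart with these probes.

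**Figure D4:**
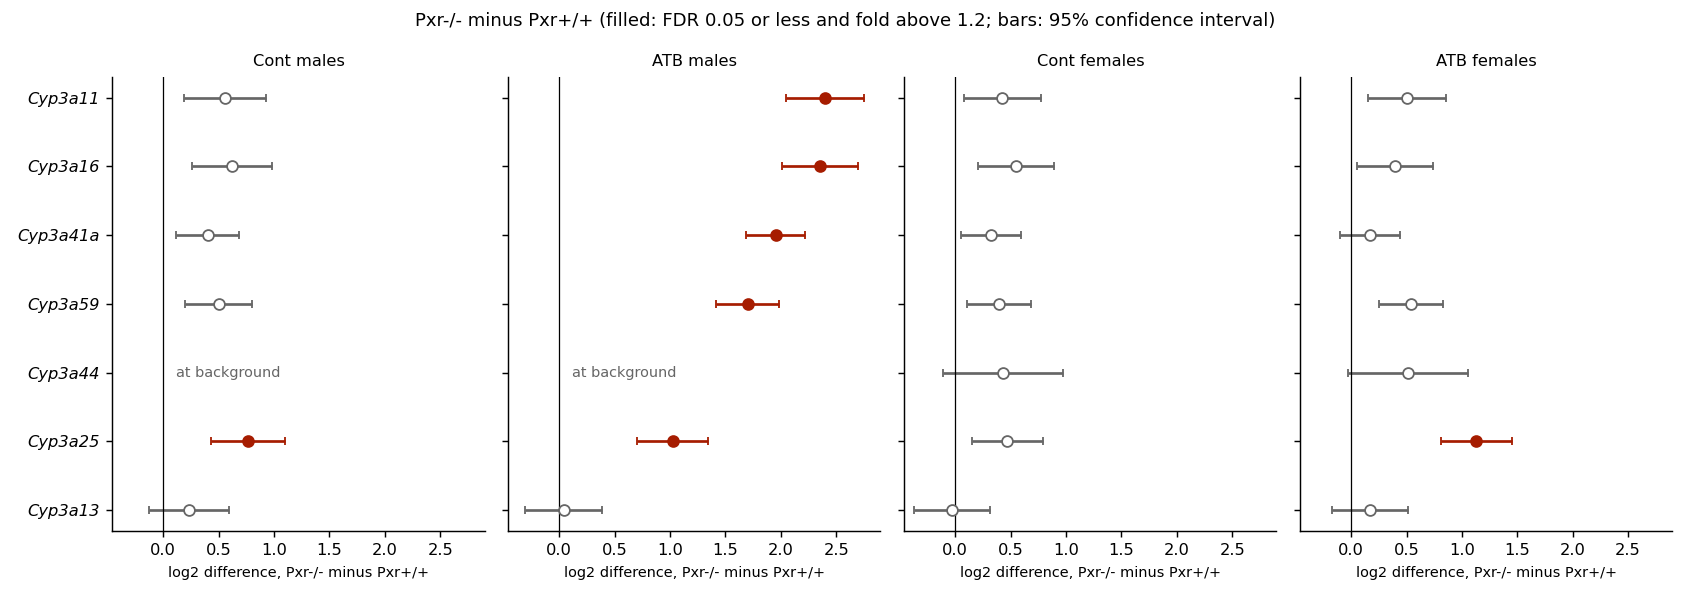
Difference in normalized log2 signal between Pxr-/- and Pxr+/+ mice (x axis) for each Cyp3a gene (y axis) in Cont males, ATB males, Cont females and ATB females; points are limma estimates, bars are 95% confidence intervals and filled points were called. Cyp3a25 is filled in 3 of the 4 panels, at 0.77, 1.03 and 1.13, and the other filled points, from 1.70 to 2.40, are in ATB males. No point is drawn for Cyp3a44 in males, where it was at background.

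The genotype effect differed between the sexes under ATB and not, at this threshold, without it. In ATB mice the effect in males minus that in females was 1.89 for Cyp3a11 (SE 0.25, limma adjusted p = 1.6e-05), 1.96 for Cyp3a16 (5.18e-06), 1.78 for Cyp3a41a (1.64e-07) and 1.16 for Cyp3a59 (0.00492), where 0.0274% of all genes were called higher and 0.0274% lower. For Cyp3a25 it was -0.10 (interval -0.56 to 0.35). In Cont mice none of the 6 was called (limma, 0 of 6 at an unadjusted p under 0.05, against 1509 of all 21874 genes). Over all genes 0.0183% were called higher and 0.00457% lower there, and the value for Cyp3a11 was 0.13 (interval -0.38 to 0.64).

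Of the 15 listed PXR targets outside the family, more were higher than lower in Pxr-/- mice in each of the 4 comparisons. In Cont males 5 were called higher and 1 lower, with a median of 0.32, where 0.16% of all genes were called higher and 0.032% lower. Cyp2c55 was higher by 2.36 (limma adjusted p = 9.23e-08), Akr1b7 by 1.54 (0.000438), Papss2 by 0.68 (0.00932), Ces2a by 0.59 (0.00225) and Cyp2c29 by 0.43 (0.04), and Slco1a4, which encodes a bile acid and drug uptake transporter, differed by -2.92 (1.3e-12). In ATB males 7 were higher and 1 lower (median 0.48), against 0.343% and 0.887% of all genes. In Cont females 5 and 0 were (median 0.22), against 0.238% and 3.88% of all genes. In ATB females 5 and 0 were (median 0.27), against 0.178% and 0.0503%. How these counts move with the scaling is not given here. The list was chosen from textbook targets with earlier results of these data known.

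The third comparison was between the sexes. In Pxr+/+ Cont mice, 5 of the 6 genes measured in both sexes were higher in females and Cyp3a25 was not called. This count stands against a large background, since 34.2% of all genes were called higher in females and 2.52% lower. The median difference was 0.90 for the 6 genes and 0.20 for all probes, and quantile normalization of all arrays brought the latter to -0.02 with the same genes called. Of all calls 93.1% were higher in females, against 44.1% to 52.4% under 3 other normalizations and 81.3% in the authors' processed values.

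Cyp3a44 set the sexes apart in every mouse. Its lowest, median and highest levels were 3.94, 4.32 and 4.80 in Pxr+/+ Cont males and 10.30, 11.63 and 12.78 in Pxr+/+ Cont females, with no overlap. It was well above background in all 24 females, in 1 of the 6 Pxr+/+ Cont males and in none of the other males. With the male level taken at the detection limit, females were at least 215-fold higher in Pxr+/+ ATB mice, at least 181-fold in Pxr-/- Cont mice and at least 319-fold in Pxr-/- ATB mice. The limit was the lowest signal well above background of any probe on the array, so it is not particular to this probe. Since the male values are those of the background, and the gene passed the filter through the females, no test is given. Beyond these bounds no difference is given either.

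For Cyp3a16 the levels of 13.33, 13.52 and 13.69 in Pxr+/+ Cont males stood against 14.32, 15.21 and 15.38 in females, 2.80-fold higher (limma adjusted p = 6.54e-09). Cyp3a11 was 2.16-fold (adjusted p = 4.84e-06), Cyp3a41a 1.89-fold (1.18e-06) and Cyp3a59 1.83-fold (9.72e-06) higher in females, with no overlap for any of the 4. The Cyp3a11 probe is also listed for Cyp3a41a, Cyp3a41b and Cyp3a44, the last at background in males. How much of its sex difference, here or in the comparisons below, belongs to Cyp3a11 was not tested. By qPCR the authors found no significant difference in Cyp3a11 between Pxr+/+ Cont males and females. Cyp3a13, the member outside the cluster, was 1.61-fold higher, with levels of 11.68, 11.87 and 12.04 in males and 12.37, 12.54 and 12.72 in females (adjusted p = 0.00224). That call was lost when the processed signal was scaled to the 75th percentile of each array (0.38, adjusted p = 0.0822).

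In Pxr+/+ ATB mice the sex difference of the 4 ATB-sensitive genes was larger, at 9.01-fold for Cyp3a11, 12.4-fold for Cyp3a16, 6.96-fold for Cyp3a41a and 4.05-fold for Cyp3a59. These were the 4 of 6 genes called higher, where 10.2% of all genes were called higher and 4.17% lower, and Cyp3a13 was not called (0.35, adjusted p = 0.209 by limma) unless only the 2 groups compared were fitted (adjusted p = 0.0221). In Pxr-/- Cont mice the same 4 genes were called higher (15.8% of all genes higher and 2.89% lower), by 1.98-fold for Cyp3a11, 2.67-fold for Cyp3a16, 1.79-fold for Cyp3a41a and 1.70-fold for Cyp3a59. In Pxr-/- ATB mice 5 were called (27.5% of all genes higher and 2.88% lower), by 2.43-fold, 3.20-fold, 2.02-fold and 1.81-fold for those 4 in the same order. The share of calls that were higher was 71.0%, 84.5% and 90.5% in these comparisons and at its lowest 50.7%, 42.3% and 42.2% under the other scalings. In Pxr-/- ATB mice the remaining gene was Cyp3a13, with overlapping groups (0.48, limma adjusted p = 0.0328) and a call that 6 of the other settings removed. Cyp3a25 differed between the sexes by -0.03, -0.06, -0.33 and 0.04 in these 4 comparisons, none called, although that in Pxr-/- Cont mice was called lower in females under each of the 4 other scalings (-0.49 to -0.42).

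Genes around the P450 enzymes also differed by sex. Por was higher in females in all 4 comparisons, by 1.19, 1.04, 1.36 and 1.04 in Pxr+/+ Cont, Pxr+/+ ATB, Pxr-/- Cont and Pxr-/- ATB mice. Of the 10 growth hormone and sex-dependent regulators, 8 were higher in Pxr+/+ Cont females, among them Cux2, a repressor known from female liver, and the prolactin receptor gene Prlr (2.80), and 1, Bcl6, a repressor known from male liver, was lower. Under the 4 other scalings 5 or 6 of the 10 were higher and 1 to 3 lower. In the same comparison, where 34.2% of all genes were called higher, 11 of 12 macrophage, 6 of 10 lymphocyte, 7 of 10 endothelial, 7 of 10 stellate, 3 of 12 hepatocyte and 0 of 8 cholangiocyte markers were higher in females, and their part in the Cyp3a differences was not tested. Of the macrophage markers, Csf1r was called higher by 1 of its probes and lower by another. In Pxr-/- Cont mice, where 15.8% of all genes were called higher, these counts were 4, 5, 3, 1, 1 and 0. Calls over all genes were fewer there too, 4079 against 7999 in Pxr+/+ Cont mice. The lower marker counts are therefore not read as an effect of genotype, and how they move with the scaling is not given here. The marker counts in Pxr+/+ Cont mice depended on the scaling, with 8 to 10 macrophage, 5 lymphocyte, 1 to 5 endothelial, 0 to 4 stellate and 0 to 3 hepatocyte markers higher under the 4 others, and with the processed signal 5 hepatocyte markers were called lower in females. Near the cluster, 22 of the 61 neighbouring genes were higher in Pxr+/+ Cont females, a share close to that of all genes, and 4 were in Pxr+/+ ATB females. LOC102641312, 108.6 kb from the Cyp3a41a probe, was higher in females in all 4 comparisons, by 1.12 to 1.36, and was called under each of the 4 other scalings too.

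The levels of the genes can be ordered over the 8 groups. For Cyp3a11, Cyp3a16, Cyp3a41a and Cyp3a59 the Pxr+/+ ATB males were lowest, followed by the Pxr+/+ Cont males, the Pxr-/- males of both treatments and then the females. The Pxr+/+ ATB males did not overlap the next group for any of the 4, and the gap between means was 2.04, 1.90, 1.73 and 1.18. For Cyp3a59 the Pxr+/+ Cont males did not overlap the next group either, and all other neighbours overlapped for these genes. For Cyp3a44 all males were below all females, the order among male groups being that of background values, and for Cyp3a13 all neighbours overlapped, with the 4 male groups lowest, from 11.86 to 12.15, and the female groups from 12.45 to 12.63.

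Single mice were low or high in several genes at once. Among Pxr-/- ATB males, replicates 6 and 1 had the lowest levels of Cyp3a11 (13.85 and 14.12), Cyp3a16 (13.37 and 13.62), Cyp3a41a (16.46 and 16.84) and Cyp3a59 (13.80 and 13.82). Among Pxr+/+ Cont females, replicates 6 and 3 were lowest in the same 4 genes, and among Pxr+/+ ATB females replicate 2 was. The genes of a mouse were read on 1 array from 1 RNA, and their probes can share transcripts, so these are not separate observations.

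Promoter likeness and likeness of signal did not always coincide. Likeness of signal was taken as the root mean square difference between the 8 group means of each gene after centring, so that 0 means the same profile. The promoters formed 2 classes. Cyp3a11, Cyp3a16, Cyp3a41a, Cyp3a41b and Cyp3a44 shared 72.5% to 99.6% of bases pairwise, Cyp3a25, Cyp3a57 and Cyp3a59 shared 88.9% to 94.8%, and pairs between the classes shared 52.7% to 57.4%. Cyp3a59 shared 94.8% of its promoter with Cyp3a25, but its signal profile was 0.22 from Cyp3a41a and 0.67 from Cyp3a25. Cyp3a44 shared 94.4% with Cyp3a41a, and its profile was left out because its male means are background. The profiles of Cyp3a11, Cyp3a16 and Cyp3a41a lay within 0.36 of one another.

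**Figure D5:**
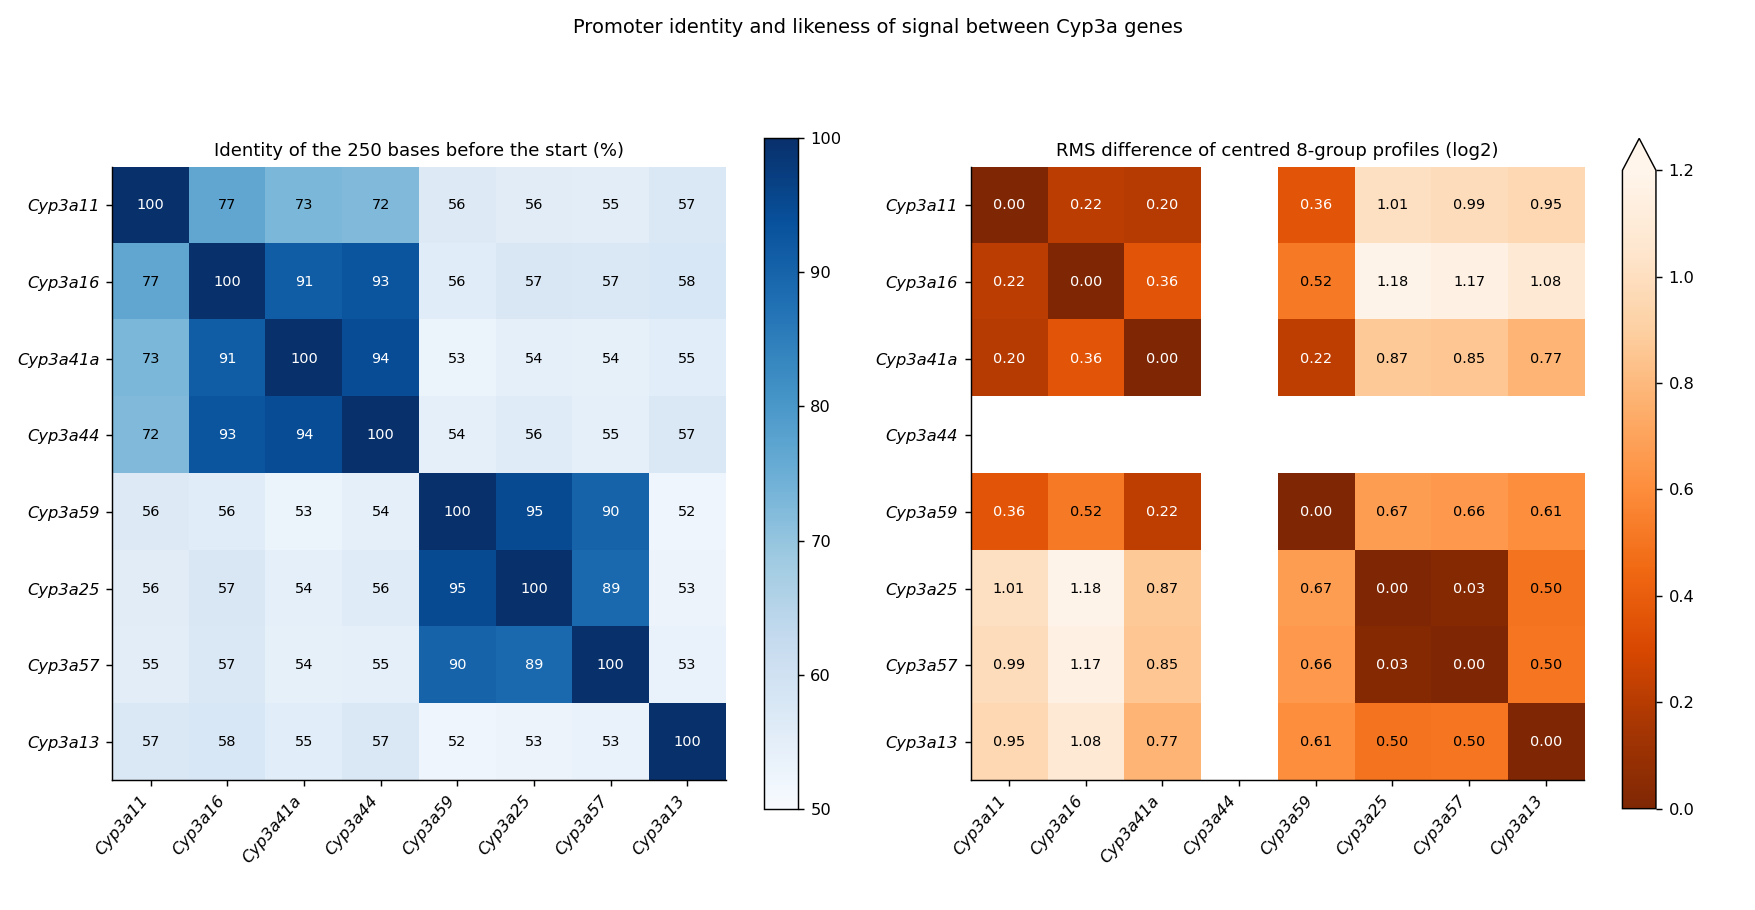
Left, identity of the 250 bases before the start (percent, darker is more alike) for each pair of Cyp3a genes; right, root mean square difference between their centred profiles of 8 group means (log2, darker is more alike). Cyp3a59 is dark with Cyp3a25 on the left (94.8%) and with Cyp3a41a on the right (0.22), and Cyp3a44 is dark on the left with Cyp3a41a (94.4%) and left blank on the right, since its male values are background.

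By the same measure, over 8 groups, the nearest 3 genes outside the family were named for each member but Cyp3a44. For Cyp3a11 they were Ndrg1 (0.60), Gadd45b (0.62) and Acot1 (0.62), for Cyp3a16 Gadd45b (0.59), Serpinb1a (0.60) and Serpinb1c (0.65), and for Cyp3a41a Vnn1 (0.48), Acot1 (0.49) and Papss2 (0.51). For Cyp3a59 they were Dio1 (0.31), Ndrg1 (0.33) and Papss2 (0.33), and for Cyp3a25 Cyp2c38 (0.16), Ces2a (0.18) and Ldlrad4 (0.19). For Cyp3a13, whose profile was nearly flat, they were a transcript without a gene symbol (0.04), Ttc39b (0.06) and Zfp157 (0.06). No gene outside the family lay as close to Cyp3a11, Cyp3a16 or Cyp3a41a as these lay to one another. The Cyp3a11 probe is also listed for Cyp3a41a and Cyp3a41b. How much shared transcripts add to this likeness was not tested.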

How the data were processed

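Liver RNA of 47 mice was hybridized by the authors to 1-color Agilent SurePrint G3 Mouse GE v2 arrays, read with Agilent Feature Extraction 10.10.1.1 (build mm9). The deposited scanner files hold spot intensity with no background subtracted, and the deposited value table holds the authors' processed log2 values of 33383 probes, used as an alternative.

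The methods of the study were followed: log2 median intensity, control spots and 422 non-uniform spot values left out, probes kept when at least 5 arrays of 1 group showed them well above background, wash batch removed, and CrossNorm, rebuilt here as quantile normalization of stacks of 1 array from each group (300 random stacks, averaged). limma 3.58.1 (R 4.3.3) fitted the 8 groups and wash batch over 32975 probes of 21874 genes, with 12 comparisons of 2 groups and 6 differences between effects. Bounds for signals under background used the lowest signal well above background on each array. Replicates were mice as numbered in the labels.

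The 7 genes, the gene lists and the cell type markers were chosen with earlier results of these data known. Genes named were the members, the listed genes, genes within 500 kb and the 3 nearest profiles of each member but Cyp3a44. On simulated data for the ATB comparison in Pxr+/+ males (8000 probes), 99% of log2 changes of 2 and 98% of changes of 1 were recovered, with 2 false calls. The simulated noise was independent between probes, and as many changes went up as down. The real calls depended on the scaling, so these figures do not give the error rate on the real arrays. Precision is limited by the number of arrays. The alternatives were other normalizations, background corrections, filters and blocks, only the groups compared, and leaving out each array after normalization. No columns of other samples were used.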

Additional observations from a re-analysis of the deposited data

Results flagged for a closer look

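One mouse stood apart from its group in 4 genes. Replicate 2 of the Pxr+/+ ATB females was the lowest of 6 for Cyp3a11 (14.64, 0.58 below the next mouse on the log2 scale), Cyp3a16 (14.65, 0.62 below), Cyp3a41a (17.48, 0.42 below) and Cyp3a59 (13.93, 0.60 below). These were the 4 gaps past Dixon's limit among 56 sets of 1 gene in 1 group, and a limit of this kind is passed by chance in about 5% of sets. The 4 values come from 1 array, so that they are not separate. In the ATB comparison of Pxr+/+ females no member was called with this array or without it.

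Effects that differed between groups were found for the same 4 genes in 3 tests of the difference. The ATB effect in Pxr+/+ minus Pxr-/- males was -1.84 for Cyp3a11, -1.73 for Cyp3a16, -1.55 for Cyp3a41a and -1.20 for Cyp3a59. The ATB effect in males minus females among Pxr+/+ mice was -2.06 for Cyp3a11, -2.15 for Cyp3a16, -1.88 for Cyp3a41a and -1.14 for Cyp3a59. The Pxr-/- effect in males minus females among ATB mice was 1.89 for Cyp3a11, 1.96 for Cyp3a16, 1.78 for Cyp3a41a and 1.16 for Cyp3a59. The 3 tests share the Pxr+/+ ATB males, whose low levels enter each of them, and are not independent of one another. Each of the 12 differences was larger than 5 times its standard error.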

How the results depend on the processing

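The family was followed through 11 alternatives and with each of the 47 arrays left out. Of the 41 called values of the 6 genes measured in every mouse, none changed sign under any of them. Under the alternatives 441 results kept the call and 10 lost it, and with an array left out 1913 kept it and 14 lost it. The 441 include results for only the brightest probe of each gene, a setting not fitted anew that could lose no Cyp3a call. The count of Cyp3a genes called between genotypes in Cont males, 1, became 2 with quantile normalization or normexp background, 0 with the slide as a block and 0 with the replicate block, and ranged from 0 to 1 with an array left out. In Cont females the count of 0 became 3 with quantile normalization, 4 with the processed signal scaled to its 75th percentile, 3 with normexp background and 3 in the authors' processed values. It ranged from 0 to 2 with an array left out, being 2 without replicate 5 of the Pxr+/+ Cont females, and 1 without replicate 2 of the Pxr+/+ ATB females or replicate 6 of the Pxr-/- ATB males. In ATB females 1 became 2 with quantile normalization, normexp background and the authors' processed values. The Cyp3a25 call in Cont males was also lost when the 2 groups were fitted alone (limma adjusted p = 0.161), whereas Cyp3a16 in Cont males (0.0234) and Cyp3a13 between the sexes of Pxr+/+ ATB mice (0.0221) were then called, and that of Cyp3a13 between the sexes of Pxr-/- ATB mice was lost when any of 6 arrays was left out, replicates 2, 3 and 5 of the males and 2, 4 and 6 of the females. In Pxr-/- Cont mice Cyp3a13 was called higher in females without replicate 2 (limma adjusted p = 0.0455) or 5 (0.0381) of the females. The cause was not tested. Same-numbered mice did not deviate together (mean r 0.03 over 161 pairs, lowest -0.37, and 15 of 47 arrays correlated best with their own number), so that the numbers pair nothing, and the replicate block ended only the Cyp3a25 call in Cont males (0.73, adjusted p = 0.0777) among the members. Counts over all genes moved more: between the sexes of Pxr+/+ Cont mice 7999 were called, against 3120 to 4986 under the 4 other scalings, of Pxr-/- ATB mice 6616 against 2584 to 4330, and of Pxr-/- Cont mice 4079 against 2639 to 3809. Between genotypes 901 in Cont females stood against 229 to 769, 269 in ATB males against 178 to 233 and 42 in Cont males against 66 to 73. Under ATB 24 in Pxr-/- males stood against 56 to 69, 45 in Pxr-/- females against 19 to 124 and 4 in Pxr+/+ females against 8 to 13. Cyp3a44 had no value when probes had to be above background on every array, and its low signal in males gives bounds only.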

Other observations

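Among PXR target genes outside the family, of the 15 tested, 8 were higher and 3 lower in females among Pxr+/+ Cont mice (median 0.92), and 9 and 1 among Pxr-/- Cont mice (median 0.42), where 34.2% and 15.8% of all genes were called higher and 2.52% and 2.89% lower. Under 4 other scalings 8 were higher and 3 to 5 lower in the former, and 7 to 9 higher and 2 or 3 lower in the latter. Papss2, which makes the sulfate donor of sulfotransferases, and Slco1a4 were higher in females in all 4 comparisons, and Aldh1a1, a retinal dehydrogenase gene, was lower in all 4. Slco1a4 was higher in females by 1.39 in Pxr+/+ Cont and by 3.81 in Pxr-/- Cont mice, and the Pxr-/- effect in males minus that in females was -2.42 (limma adjusted p = 9.61e-06). None of the 6 Cyp3a genes measured in both sexes had a sex-dependent Pxr-/- effect in Cont mice past the threshold. Nr1i3, which encodes the receptor CAR, was higher in females by 0.53, 0.59, 0.62 and 1.04 in Pxr+/+ Cont, Pxr+/+ ATB, Pxr-/- Cont and Pxr-/- ATB mice, and the first of these was not called when the processed signal was scaled to the 75th percentile (0.28).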
